A study of Mus musculus with 2 samples.

Results

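The genes described here are 10 genes of major histocompatibility complex (MHC) class II antigen presentation, chosen by symbol from the 21877 genes with a usable symbol on the array, where each had 1 probe set. They are the classical chain genes H2-Aa, H2-Ab1 and H2-Eb1, the invariant chain gene Cd74, the peptide editing genes H2-DMa, H2-DMb1, H2-DMb2, H2-Oa and H2-Ob, and the transactivator gene Ciita. RNA came from mouse CD8 T cells in culture with Tc1 cytokines, which steer CD8 cells toward interferon gamma production and killing. One culture had no further treatment and the other also received cholesterol. The sources used here give no cholesterol dose, vehicle or duration, no mouse strain or tissue of origin and no purification method. Each condition had 1 array, so each value below is a single measurement, no difference has a replicate error, and no test was made.

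Class II molecules show peptides taken from endosomes to CD4 T cells. An alpha and a beta chain assemble in the endoplasmic reticulum on the invariant chain, which blocks the groove and directs the complex to endosomes. There the invariant chain is cut down to a short remnant called CLIP, the editor H2-M exchanges CLIP for other peptides, and H2-O holds H2-M back. Transcription of the genes for these proteins depends on the coactivator CIITA. It docks on regulatory factor X, CREB and nuclear factor Y bound to the X and Y boxes of the promoters. In the mouse, B cells, dendritic cells and macrophages are the main class II cells, and T cells make little.

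The promoter stretches that carry these boxes are shown because shared promoter elements are what the members other than Ciita are known to have in common. The RefSeq promoter table (GRCm38.p6) held windows, from 250 bases before the start site to 50 bases from it on, for 7 of the 10 members. H2-Ab1, Cd74 and Ciita had no window there. Each line below is a 75-base stretch on the gene's own strand, 5′ to 3′, with the search letters in capitals.
H2-Aa (chr17:34287854-34287928, minus strand): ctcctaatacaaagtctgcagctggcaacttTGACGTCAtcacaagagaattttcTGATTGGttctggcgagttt
H2-Eb1 (chr17:34305751-34305825, plus strand): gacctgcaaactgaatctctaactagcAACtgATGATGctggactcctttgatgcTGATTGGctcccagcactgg
H2-DMb1 (chr17:34153073-34153147, plus strand): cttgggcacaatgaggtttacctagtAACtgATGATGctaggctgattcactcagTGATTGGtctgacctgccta
H2-DMb2 (chr17:34145102-34145176, plus strand): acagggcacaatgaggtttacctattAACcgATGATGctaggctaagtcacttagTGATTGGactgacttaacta
H2-Oa (chr17:34092279-34092353, plus strand): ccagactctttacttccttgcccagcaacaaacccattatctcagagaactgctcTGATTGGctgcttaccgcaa
H2-Ob (chr17:34238791-34238865, plus strand): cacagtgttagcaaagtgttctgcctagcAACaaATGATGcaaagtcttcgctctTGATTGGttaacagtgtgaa

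The Y box was searched as TGATTGG and the X box as AAC followed after a gap of 2 bases by ATGATG, on both strands, and the letters of the X box were written after these promoters had been read. The Y box letters were in the windows of 6 members, all but H2-DMa, and in 7.82% of all 32851 windows of the table. Their first base lay between 92 and 45 bases before the start site. The X box letters were in the windows of 4 members, H2-Eb1, H2-DMb1, H2-DMb2 and H2-Ob, and in 0.137% of all windows. In those 4 members, 15 to 18 bases separated the boxes, and 9 windows of the whole table, theirs included, held both. H2-Aa did not hold these X box letters but held TGACGTCA, the octamer that CREB is known to bind, which 1.79% of windows hold. Only exact matches were sought, so an X box with other letters would be missed. These matches describe letters, not bound sites. The windows of H2-DMb1 and H2-DMb2 were identical at 208 of 247 aligned bases (84.2%). How far the array's probes keep these duplicated genes apart was not examined, so the split of signal between them is uncertain.

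Signals are the authors' linear intensities. A difference is log2 of the cholesterol signal minus log2 of the untreated signal, and folds are the same difference on the linear scale. The brightness filter required a signal of at least 47.4, the median over gene-level probe sets, on the brighter array, and 11327 genes passed it, including 9 of the 10 members. Only Ciita lay below it. The 5222 negative control probe sets had a 95th percentile of 130.3 without and 121.8 with cholesterol, and signals up to it are called within the negative control range. Of the members, 8 were above it on both arrays. H2-Ob and Ciita were within it on both, and no fold is given for them. All 12 T cell identity genes, among them Cd8a (signals of 3274 without and 3780 with cholesterol) and Cd3e (4829 and 5153), were above the negative controls on both arrays.

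Cholesterol-treated cells had lower signals for the invariant chain, for all 3 classical chains and for part of the editing machinery. Of the 10 members, 8 were lower and 2 higher, where 47.7% of all 21877 measured genes were lower and 49.8% higher. Their median log2 difference was -0.54, and that of all measured genes was 0. Over the 8 members above the negative controls, 6 were lower and the median was -0.51. Of all 7795 genes above the controls on at least 1 array, 2809 were lower and the median was 0.068. Among the 9 members past the brightness filter, 3 (Cd74, H2-Aa and H2-DMb2) were at least 1.5-fold lower, where 2.72% of all genes past it were. After quantile normalization or loess, where 2.87% and 2.91% of genes passed the same threshold, H2-Ab1 was the 1 further member above the negative controls that did. In the deposited signals 1 (Cd74) was at least 2-fold lower, where 0.539% of genes were. No member was at least 1.5-fold higher, where 3.22% of genes were, or at least 2-fold higher, where 0.283% were. In bulk RNA, fewer cells of a type and less RNA per cell cannot be told apart.

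**Figure D1:**
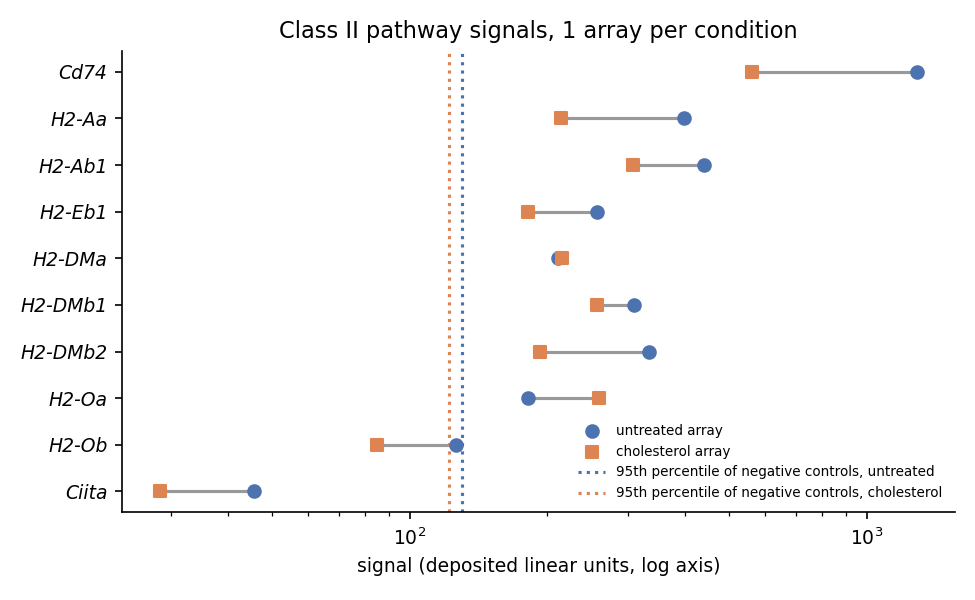
Signal of each class II pathway gene on the untreated array (circles) and the cholesterol array (squares), on a log axis in the authors' linear units, with dotted lines at the 95th percentile of the negative controls of each array. H2-DMa hardly differs, H2-Oa is higher with cholesterol, and the other 8 genes are lower. For H2-Ob and Ciita, each symbol lies left of the line of its own array. The untreated H2-Ob circle lies between the lines.

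Cd74 encodes the invariant chain, the chaperone that also serves as a surface receptor for the cytokine MIF. Its signal went from 1288 in untreated cells to 562, a log2 difference of -1.20 or a 2.29-fold lower level. It stood below all but 4 of the 7112 genes above the negative controls on both arrays. Those 4 were Penk, Ccl3, Tgm2 and Lif. That set leaves out genes that were within the negative control range on the cholesterol array, such as Ifng. Among all 11327 genes past the brightness filter, Cd74 ranked 23 from the lowest. Of 1224 genes within 0.5 log2 units of its mean signal, Lif alone differed further downward (-1.39), and the central 95% of these genes ran from -0.37 to 0.47. That range describes genes of like brightness on this pair of arrays, real differences included, and is not a replicate error.

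The 3 classical chain genes were all lower with cholesterol, but by unequal amounts. H2-Aa, the alpha chain of I-A, went from 398 in untreated to 215 in treated cells, a 1.85-fold lower level (log2 difference -0.89). H2-Ab1, the beta chain with which it pairs, had signals of 441 and 308, a 1.43-fold lower level (-0.52). H2-Eb1, the beta chain of I-E, went from 257 to 182, a 1.41-fold lower level (-0.50). The I-A partners thus differed from each other by 0.37 log2 units, while both beta chains lay close together. Relative to genes of like signal, 0.324% lay below H2-Aa, 1.13% below H2-Ab1 and 2.26% below H2-Eb1. Cd74 lay 0.68 log2 units under the median of the 3 chains. The alpha chain of I-E, a pseudogene in the reference strain that the array lists as H2-Ea-ps, had signals of 20.04 and 24.1, and the further beta chain gene H2-Eb2 had 21.99 and 18.2. Both were within the negative control range.

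**Figure D2:**
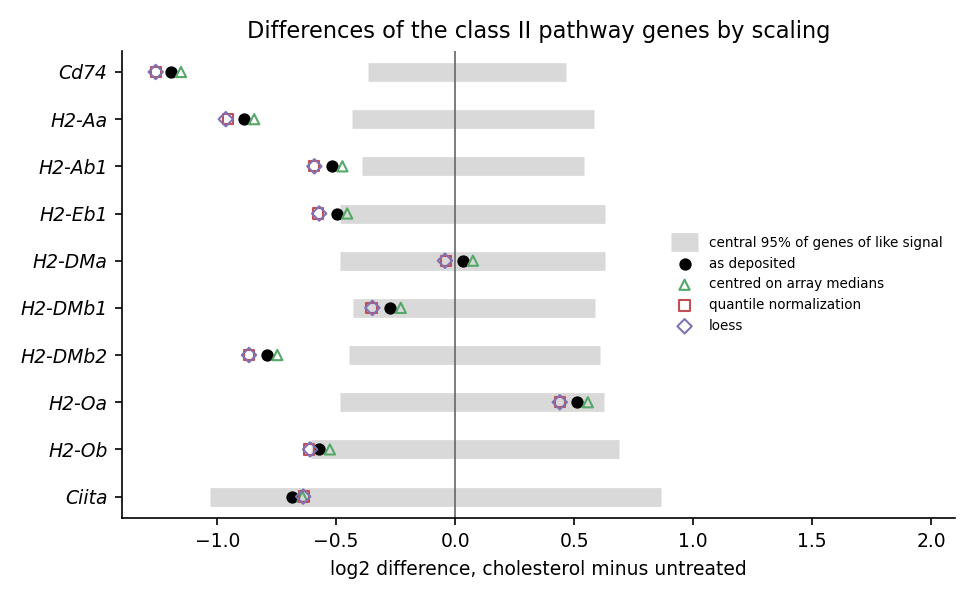
The log2 difference of each class II pathway gene, cholesterol minus untreated, in the deposited signals (filled circles) and after centring, quantile normalization and loess (open symbols). Grey bars give the central 95% of genes past the brightness filter within 0.5 log2 units of the gene's mean signal. The bars come from the deposited signals and were not recomputed for the other scalings. Cd74, H2-Aa, H2-Ab1 and H2-DMb2 lie left of their bars under all 4 scalings, while H2-DMa crosses 0.

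The peptide editing genes did not share 1 direction. Their median log2 difference was -0.27, with 3 lower and 2 higher, and they ran from -0.79 to 0.51. Over the 4 above the negative controls, without H2-Ob, 2 were lower and 2 higher and the median was -0.12. H2-DMb2, a beta chain of the editor H2-M, went from 334 in untreated to 193 in treated cells, a 1.73-fold lower level. H2-DMb1, the neighbouring beta chain gene, had signals of 310.3 and 257, a 1.21-fold lower level. The beta chain genes thus differed by 0.52 log2 units from each other, with the limit on their separation given above. H2-DMa, the alpha chain shared by both, had signals of 211 and 215, a log2 difference of 0.031. Its sign turned under quantile normalization (-0.037) and loess (-0.043).

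H2-O, the inhibitor of the editor, had chains that lay on opposite sides. H2-Oa, its alpha chain, went from 182 in untreated to 259.6 in treated cells, a 1.43-fold higher level (log2 difference 0.51). Among genes of like signal 4.73% lay higher, and H2-Oa was inside their central 95% of -0.48 to 0.63. H2-Ob, the beta chain, had signals of 126 and 85.0, a log2 difference of -0.57. Both H2-Ob signals were within the negative control range, at percentiles 94.8 and 92.8 of the controls, and its difference was inside the central 95% of genes of like signal (-0.61 to 0.69).

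Ciita, the coactivator on which class II transcription depends, was listed at signals of 45.7 without and 28.4 with cholesterol. These lay at percentiles 84.2 and 75.0 of the negative controls, below the brightness filter, so its log2 difference of -0.69 has no firm size. It was -0.47 with a pseudocount of 16. The level of the transactivator was therefore not measurable above background on either array, although 8 other members were.

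**Figure D3:**
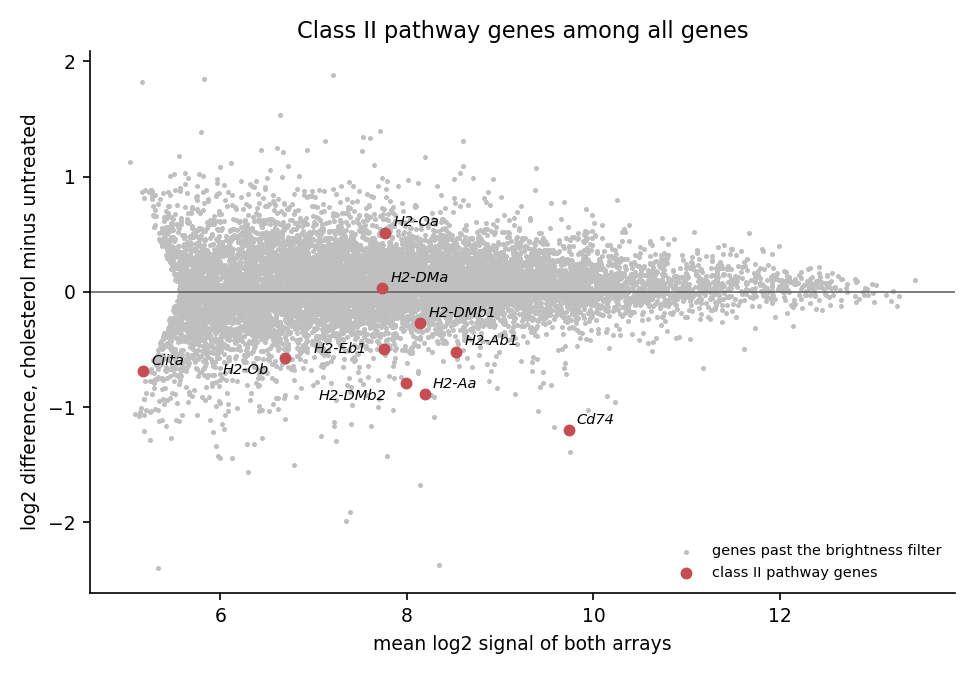
The log2 difference (cholesterol minus untreated) against the mean log2 signal of both arrays for the 11327 genes past the brightness filter (grey) and the 10 class II pathway genes (red, including Ciita from below the filter). Cd74, H2-Aa and H2-DMb2 lie at the lower edge of the cloud at their brightness, and H2-Oa lies above 0.

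In the RefSeq order of chromosome 17, the stretch from H2-Oa to H2-Eb1 holds 13 protein-coding genes, 8 of them members. Cd74 lies on chromosome 18 and Ciita on chromosome 16. The 5 other genes are Brd2, a chromatin reader, the immunoproteasome genes Psmb8 and Psmb9, and the peptide transporter genes Tap1 and Tap2. Their log2 differences were 0.092 for Brd2, 0.096 for Psmb9, 0.24 for Tap1, 0.093 for Psmb8 and 0.0076 for Tap2, which turned to -0.016 under quantile normalization and -0.049 under loess. The lower class II genes thus stood on both sides of a block of genes without a lower signal of like size. The members next to each other at one end, H2-Ob, H2-Ab1, H2-Aa and H2-Eb1, were all lower by 0.50 to 0.89 log2 units. Of these, H2-Ob was within the negative control range. The other end was mixed: H2-Oa and H2-DMa were not lower in the deposited signals, while H2-DMb2 (-0.79) and H2-DMb1 (-0.27) were.

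**Figure D4:**
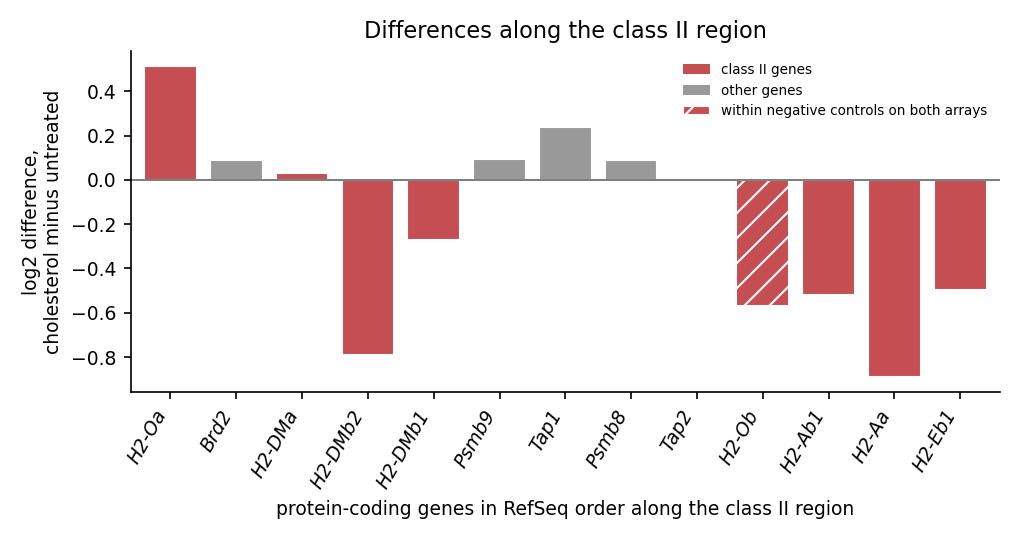
The log2 difference (cholesterol minus untreated) of the 13 protein-coding genes from H2-Oa to H2-Eb1 in their RefSeq order on chromosome 17, with class II genes in red, other genes in grey and hatching where both signals were within the negative control range. The bars of H2-DMb2, H2-DMb1 and of H2-Ob through H2-Eb1 point down, and those of Brd2, Psmb9, Tap1 and Psmb8 point up.

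MHC class I presentation, which shows cytosolic peptides to CD8 T cells, did not share the lower level. All 9 measured genes of the list were higher in the deposited signals, by 0.0076 to 0.24 log2 units, and 0 reached 1.5-fold. Their median of 0.079 was close to the 0.068 of all 7795 genes above the controls on at least 1 array. Of those 7795 genes, 4915 were higher. After quantile normalization 5 class I genes were higher and 3 lower, and after loess 6 were higher and 3 lower. The heavy chain gene H2-K1 had signals of 4003 and 4079, and B2m, the light chain, of 10801 and 11607. Nlrc5, the class I counterpart of Ciita, had signals of 381 and 398, and Tap1 was 1.18-fold higher.

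The factors that sit on class II promoters were not lower as a group. Of 10 measured cofactor genes, 7 were higher and 3 lower, with a median of 0.25, and 0 reached 1.5-fold in either direction. Over the 9 above the negative controls, without Kat2b, 6 were higher and 3 lower, where 4915 of all 7795 such genes were higher. Rfx5, a subunit of regulatory factor X, had signals of 265 without and 292 with cholesterol. Rfxank, another subunit, was 1.22-fold higher and Creb1 was 1.26-fold higher.

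Genes of class II processing and turnover showed 3 higher and 5 lower of 8 measured. The median over these 8 was -0.023, and it turned to 0.021 after centring each array. Cd83, a surface protein that protects class II from ubiquitination, had signals of 214 and 142, a 1.51-fold lower level and the 1 gene of the list past 1.5-fold. Its log2 difference of -0.59 was -0.55 after centring, short of 1.5-fold. Ctss, the protease that trims the invariant chain in B cells and dendritic cells, had signals of 525 and 541, and Ctsl, which does so in thymic epithelium, was within the negative control range (53.5 and 66.1). Ifi30, a thiol reductase of antigen processing, had signals of 1109 and 985. March1, the ubiquitin ligase of class II, whose symbol had become a date in the table and was read from its description, had signals of 42.2 and 14.9, both within the negative control range. March8, a related ligase recovered in the same way, had signals of 117 and 139.99, within that range in untreated cells alone.

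Interferon gamma is the classical inducer of Ciita, and its own gene was among the lowest with cholesterol. Ifng went from 323 in untreated to 81.5 in treated cells (log2 difference -1.99), at least 2.65-fold lower, the bound being the brighter signal over the negative control percentile of the other array. Of the 10 measured genes of interferon gamma signalling, 5 were lower and 5 higher, with a median of -0.060, and Ifng alone was past 1.5-fold. Ifngr2, a receptor chain, had signals of 193 and 136, a 1.42-fold lower level, whereas Ifngr1, the ligand-binding chain, had signals of 1623 and 1853. Irf1, a transcription factor that interferon gamma induces, had signals of 1249 and 1131. The part of the lower Ifng signal in the class II values was not tested.

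**Figure D5:**
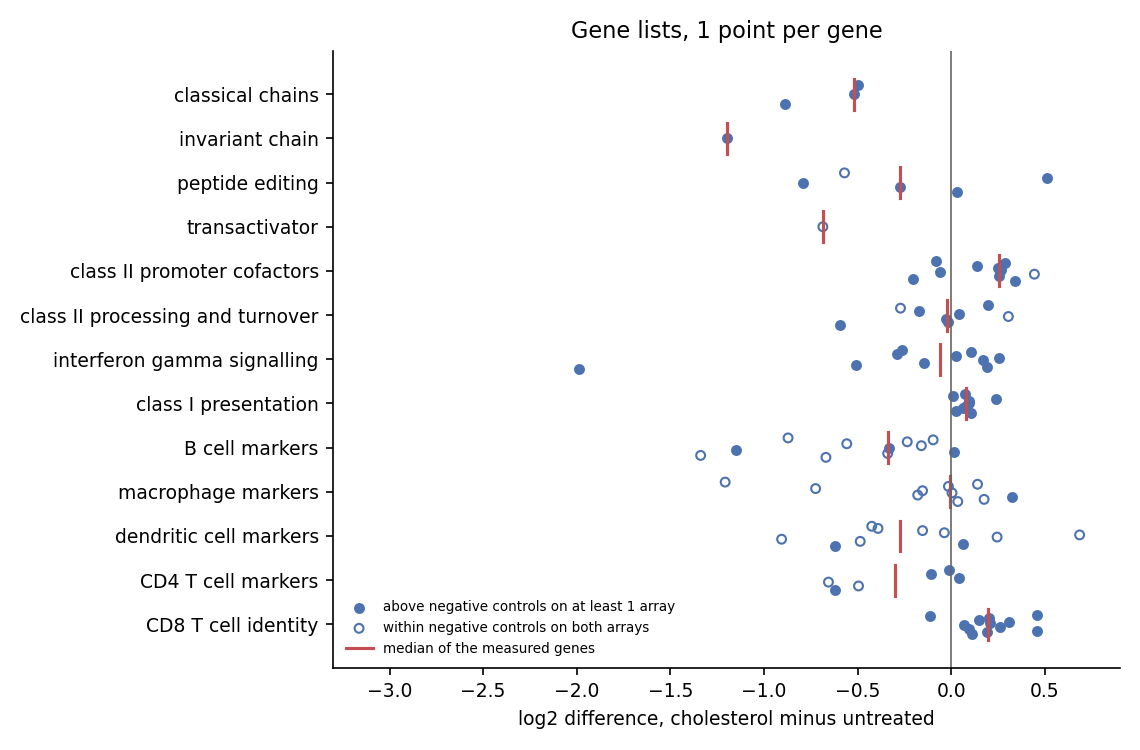
The log2 difference (cholesterol minus untreated) of each measured gene, by list, with filled points above the negative controls on at least 1 array, open points within them on both, and a red bar at the median of the measured genes of each list. Class I presentation and CD8 T cell identity lie around or above 0, and most points of the B cell, macrophage and dendritic cell lists are open.

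Markers of B cells, the lymphocytes in which class II is always on, were mostly lower, but most lay within the negative control range. Of 11 measured markers, 10 were lower, where 47.7% of all 21877 measured genes were. The marker median was -0.34, and over the 7 past the brightness filter it was -0.56. Over the 3 above the negative controls on at least 1 array, 2 were lower and 1 higher, with a median of -0.33. The summed signal of all 11 markers was 1247 without and 917 with cholesterol, and 3 and then 2 markers were above the negative controls. Cd79a, a signalling chain of the B cell receptor, had signals of 251 and 113, at least 2.06-fold lower, and Cd79b, its partner, had signals of 187 and 149. On both arrays Pax5 (68.6 and 37.5) and Ms4a1 (27.6 and 25.8) stayed within the negative control range. Cd72 (381 and 384) was also above it, and hardly differed.

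Markers of macrophages and dendritic cells, the other class II cells, were mostly within the negative control range. Of 10 macrophage markers, 5 were higher and 5 lower, with a median of -0.0054 and summed signals of 480.0 and 451. The median was -0.15 over the 5 past the brightness filter. Cd68 (145 and 181) alone was above the negative controls on each array, and it was higher by 0.32 log2 units. The defining genes Adgre1 (20.1 and 20.6) and Csf1r (18.04 and 15.9) were within the negative control range, as were Lyz2 (78.8 and 47.7) and Mpeg1 (55.1 and 23.9). Of 10 dendritic cell markers, 3 were higher and 7 lower, with a median of -0.27 and summed signals of 2040.3 and 1973. Itgax (14.1 and 13.8) and Flt3 (11.4 and 18.4) were within the negative control range. Only Batf3 (317 and 206) and Ccr7 (1563 and 1635), which activated T cells are also known to express, were above it on both arrays.

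CD4 T cell markers were lower in 5 of 6 (4 after centring, 6 after quantile normalization or loess). Their median was -0.30 and their summed signals were 2302 and 2019.8. Over the 5 past the brightness filter the median was -0.11, and over the 4 above the negative controls it was -0.061. Cd4 had signals of 605 and 393, a 1.54-fold lower level. The other markers above the negative controls, Zbtb7b (-0.011), Il2ra (-0.11) and Gata3 (0.039), differed little in log2 terms. Foxp3 (61.0 and 38.7) was within the negative control range. Of 12 genes in the CD8 T cell identity list, 11 were higher (10 after loess), with a median of 0.20. Among all 11327 genes past the brightness filter, 6632 were higher. Cd8a was 1.15-fold and Cd8b1 1.24-fold higher, and Cd3d and Zap70, general T cell genes of the same list, were each 1.37-fold higher. The part of B cells, of other class II cells and of CD4 T cells in the lower class II signals was not tested.

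The genes whose difference lay nearest the median of the classical chains (-0.52), among genes above the negative controls on both arrays, were Ckb, Slc7a1, Ttyh1, Fosl2 and Ifngr2, all within 0.0070 log2 units of it. This likeness is a single log2 difference over 2 arrays.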

How the data were processed

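The authors deposited linear signal intensities of 28846 probe sets on each array and a ratio of treated over untreated signal, per the file headers. The sources used here state no software, background correction or normalization. The RNA was labelled with biotin as sense targets, per the labels. The series value table held the same intensities (largest difference 0), and the authors' ratio equalled the quotient of the signals for all 22206 gene-level probe sets within 1e-09. Of these, 31 without 1 usable symbol were left out. The remaining 22175 named 21877 genes, with the brightest probe set used per gene. Signals were converted to log2 with Python 3.11.15, pandas 2.3.3 and statsmodels 0.14.6 (loess span 0.3). The number of arrays limits the precision.

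Members and gene lists were chosen with earlier results of these data known. The 10 lists beside the members hold 93 genes, of which 88 matched a symbol. H2-D1, Ighm and H2-Ea did not, and March1 and March8 stayed out of the counts. The naming rule took all members, list genes at least 1.5-fold different past the filter, the 2 of each list with the largest difference, a set of pathway and marker genes, and the 5 nearest the classical chains. Other list genes were named after their values were seen. A few genes that the rule names are not reported here. Procedures were tested on simulated data. Alternatives changed the scaling, the pseudocount, the filter and the probe set rule.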

Additional observations from a re-analysis of the deposited data

How the results depend on the processing

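With 1 array per condition no replicate could be left out. No paired analysis was possible for the same reason. Shifts of up to 0.16 log2 units, the median absolute difference over genes past the filter, and changes of counts by up to 1.5 times were taken as small. Of 141 values recomputed, 43 were identical, among them all member values under the probe set rule, since each member has 1 probe set. Of the 98 that changed, 91 shifted by no more than that, 7 moved further and 0 of those past 1.5-fold changed sign. The number of members at least 1.5-fold lower was 3 in the deposited signals and 5 after quantile normalization or loess (2.87% and 2.91% of all genes past the filter). The added genes were H2-Ab1 and H2-Ob, but H2-Ob lay within the negative controls, and over the 8 members above them the count went from 3 to 4. The 10-member median ran from -0.60 to -0.48, and Cd74 from -1.26 to -1.15. The B cell marker median of -0.56 was -0.33 above the negative controls and -0.34 with no filter. The CD4 marker median was -0.11 past the filter and -0.30 with no filter, and the macrophage marker median was -0.15 past the filter and 0.32 above the negative controls, where Cd68 alone was left. The fold thresholds and filters act on single arrays, so signals within or near the negative controls limit what can be read. H2-Ob and Ciita lay within them. Others were not far above: the lower signal lay at percentile 96.4 of the controls for H2-Oa, 96.7 for H2-Eb1, 96.8 for H2-DMb2 and 96.9 for H2-DMa.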
